A study of Saccharomyces cerevisiae with 44 samples.

Results

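The regions described here are the 1-kb windows of the budding yeast genome in which BrdU-labelled DNA of dbf4∆C cells reached at least 3 times the library mean in both replicates. dbf4∆C cells carry a Dbf4 that lacks its last 50 codons. Of 12023 windows (the ribosomal repeats at 450 to 490 kb of chromosome XII left out), 589 (4.90%) met this rule, and merging adjoining ones gave 117 loci. These 117 loci fell into 39 zones when gaps of up to 5 kb were bridged. The windows were chosen by the IP signal of both dbf4∆C libraries, so the values of dbf4∆C given below are descriptions and no test was made on them.

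Replication was profiled by QBU, in which cells held in G1 with α-factor were released into S phase with the thymidine analogue BrdU and hydroxyurea, so that DNA made close to the earliest origins carries the label. Labelled DNA was recovered with an antibody against BrdU (IP libraries) and sequenced, as was DNA of each culture before the selection (Total libraries). The 10 strains were dbf4∆C, dbf4-Zn*1 (C661A C664A) and dbf4-Zn*2 (H680C), which carry point mutations in the zinc finger of that C-terminal region, fkh1∆ dbf4-Zn*1, fkh1∆ dbf4-Zn*2, ctf19∆, ctf19∆ fkh1∆ fkh2-dsm, fkh1∆ fkh2-dsm, fkh1∆ and WT. Each strain had 2 replicates, and the labels name 1 strain isolate per QBU genotype. All are of the W303 background and incorporate BrdU, were grown at 23 °C and were held in 200 mM hydroxyurea for 60 min according to the labels, whereas the study's text gives a longer time for dbf4∆C. Time in hydroxyurea and the truncation therefore cannot be told apart in any value of dbf4∆C. The study's strain list places the BrdU cassette at leu2 in WT and the zinc-finger strains. In ctf19∆, fkh1∆, fkh1∆ fkh2-dsm and ctf19∆ fkh1∆ fkh2-dsm it lies at ura3 with URA3 as marker. For dbf4∆C isolates of both kinds are listed, and its Total signal at URA3, given below, was like that of the ura3 kind. Cassette and genotype thus differ together where strains of the ura3 kind are set against WT. In addition, ChIP-seq of N-terminally FLAG-tagged Dbf4-aaHH (the zinc-finger change of dbf4-Zn*1) and FLAG-tagged Dbf4 was made in cells held in G1, with 2 replicates each. Nothing states that replicates were separate cultures, so p-values measure the spread between these samples, which may be technical.

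Dbf4 activates the kinase Cdc7. The resulting kinase, DDK, phosphorylates the MCM helicase loaded at origins and is limiting, so that origins compete for it. The transcription factors Fkh1 and Fkh2 help many early origins to acquire Dbf4, and the kinetochore protein Ctf19 does so for origins beside centromeres. In hydroxyurea the nucleotide supply falls and forks slow down, so that label stays near the origins that fired first.

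The IP signal used throughout is the mean bin count of a window over the mean bin count of the library. A library's signals therefore share a fixed total, and more label in a window cannot be told apart from less label elsewhere. The libraries differed widely in depth, with 281531 to 13959837 bin counts in IP libraries, and the shallowest were both of fkh1∆ fkh2-dsm. The Total libraries bore out the deletions of CTF19, FKH1 and the end of DBF4. The zinc-finger point mutations and fkh2-dsm were not checked. CTF19 had 0 counts in the 4 libraries that should lack it. The deleted end of DBF4 had 0 counts in both dbf4∆C libraries. FKH1 held at most 5.43% of the library mean in the 10 libraries that should lack it, against at least 71.9% in the other 10.

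The working description of these windows is DNA that is still replicated without the Dbf4 C-terminus. WT cells reached 3 in both replicates in 166 members (28.2%), against 743 of all windows (6.18%). In 320 members (54.3%) both WT replicates were under 1, against 84.5% of all windows. Members were thus labelled in WT more often than windows at large, while most of them were not highly labelled there. The zinc-finger mutants reached 3 in both replicates in more of them, with 355 members (60.3%, against 6.85% of all windows) in dbf4-Zn*1 and 353 (59.9%, against 6.75%) in dbf4-Zn*2. In 169 members (28.7%, against 84.6% of all windows) none of the 18 IP libraries of the other strains reached 3. The windows are called members or dbf4∆C windows here.

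Member signals were narrow in dbf4∆C and wide in other strains. The rule cuts off low values in dbf4∆C alone, so nothing is read from this difference in spread. In dbf4∆C the medians over the 589 members were 3.95 and 3.79, with quartiles of 3.56 and 4.44 in replicate 1. In dbf4-Zn*1 the medians were 5.08 and 4.87, and the quartiles of replicate 1 were 1.75 and 12.0. In WT the medians were 0.797 and 0.708, and the quartiles of replicate 1 were 0.316 and 4.54. The members thus mixed windows at the summit of WT peaks with windows that WT cells barely labelled. They held 19.4% ± 0.55 of the IP signal in dbf4∆C (SD, n = 2), 32.6% ± 0.82 in dbf4-Zn*1, 30.9% ± 0.29 in dbf4-Zn*2 and 16.5% ± 0.06 in WT. The lowest share, 10.2% ± 0.24, was that of fkh1∆ fkh2-dsm.

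**Figure D1:**
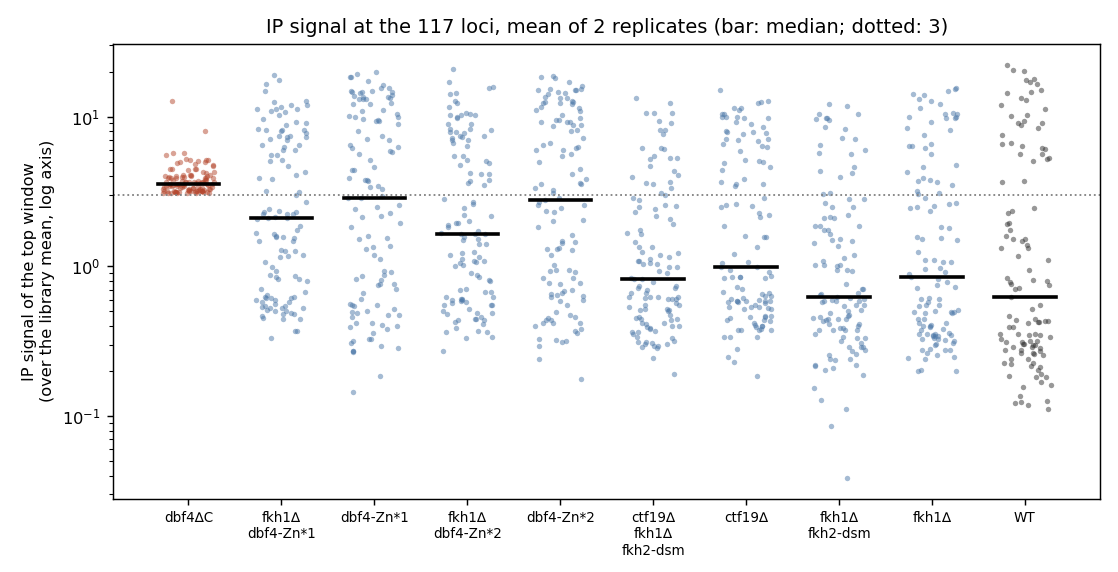
IP signal (log axis) of the top window of each of the 117 loci, as the mean of 2 replicates, by strain, with dbf4∆C at the left and WT at the right. Points are loci, black bars are medians and the dotted line is the threshold of 3. The loci are packed closely above 3 in dbf4∆C by the rule, and spread over more than 2 orders of magnitude in WT around a median of 0.626.

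Unselected DNA moved with the choice of windows. In the Total libraries the member median was 1.22 ± 0.01 in dbf4∆C and 0.920 ± 0.01 in WT (SD, n = 2), while the median of all windows was 0.894 and 0.889 in dbf4∆C, against 0.879 and 0.873 in WT. Member medians of the Total libraries were also raised in the zinc-finger mutants, at 1.05 in dbf4-Zn*1 and 1.04 in dbf4-Zn*2. When the IP signal was divided by the Total signal of the same replicate, 275 windows reached 3 in both dbf4∆C replicates, of which 268 were members. A threshold on that ratio would thus have left out 321 members. The part of DNA content in the IP signal was not tested.

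The members were unevenly spread over the genome. Chromosomes II, VIII, XI and XVI held none, although WT cells had 40, 32, 38 and 52 windows of at least 3 there. The highest dbf4∆C signals on chromosome II were 2.70 and 2.86, and those on chromosome XI 2.96 and 2.62. Chromosome VIII reached 3.32 and 3.26 and chromosome XVI 2.87 and 3.64, but no window there had 3 in both replicates. Chromosome XII held the most members, 100, followed by VII with 76, IV with 73, X with 65 and IX with 64. By share of windows, VI (15.9%), IX (14.6%) and III (13.6%) led. A total of 70 loci were single windows, while 17 loci of 10 or more windows held 406 members and the longest spanned 40.

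At the edge of the rule, the windows just inside were IV:931001-932000 with 3.12 and 3.01 in dbf4∆C, VI:171001-172000 with 4.01 and 3.01, and III:45001-46000 with 3.01 and 3.12. Those just outside were III:94001-95000 with 3.44 and 2.995, IV:926001-927000 with 2.99 and 3.64, and IV:1174001-1175000 with 3.17 and 2.99. Windows on either side of the threshold lay beside each other, and some single-window loci are pieces of one stretch.

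Windows around centromeres were not preferred. The positions are those of the deposited files, whose genome build is not given in the sources used here, and centromeres were placed between the genes that flank them, so that distances are approximate. Within 25 kb of a centromere lay 47 members (7.98%), against 6.65% of all windows and 26.8% of the WT windows of at least 3. Of 36 WT peaks (a window of at least 3 in both WT replicates that is the highest within 5 kb on either side) in these stretches, 4 had a member within 2 kb, and of all 167 WT peaks, 34 did (20.4%). Origins beside centromeres thus made up a large part of early label in WT and a small part of the members.

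Among other features, 34 members (5.77%) held a tRNA gene, against 2.50% of all windows and 7.94% of WT windows. Of the 9 windows with a core histone gene, 5 were members and 6 were WT windows. HTB1 and HTA1, a divergent pair for a histone dimer, lay in adjoining members at IV:914001-916000. The HTB1 window had 5.03 and 4.41 in dbf4∆C, against 16.1 and 19.8 in WT. HHT2 and HHF2, the pair at XIV:575001-578000, lay in members of 3.10 to 3.83 in dbf4∆C and 0.280 to 0.708 in WT, with no WT peak of their own. The other pairs, HTA2 with HTB2 and HHT1 with HHF1 on chromosome II, had 0.807 to 1.21 in dbf4∆C and 6.15 to 20.3 in WT, so the pairs did not share a level.

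The clearest property of the members was their distance from WT peaks. Within 2 kb of a WT peak lay 74 members (12.6%, against 4.02% of all windows), 131 lay at 2 to 5 kb, 172 at 5 to 10 kb, 122 at 10 to 15 kb and 90 (15.3%, against 65.4% of all windows) farther away. In dbf4∆C the member median was 4.23 and 3.93 in the nearest class and 3.66 and 3.44 in the farthest, so the signal was nearly level along the tracts. The rule holds this range from below. The other windows, which it holds under 3 in at least 1 dbf4∆C replicate, had medians of 1.04 and 1.04 in the nearest class and 0.476 and 0.496 in the farthest. Since the rule bounds both sets, nothing is read from the difference between their falls.

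In WT the same members fell steeply with distance. Their medians were 15.0 and 15.7 under 2 kb, 4.67 and 4.22 at 2 to 5 kb, 0.686 and 0.633 at 5 to 10 kb, and 0.241 and 0.261 at 15 kb or more. dbf4-Zn*1 had 15.6 and 15.6 under 2 kb, 12.6 and 12.0 at 2 to 5 kb, 5.42 and 5.21 at 5 to 10 kb, and 0.646 and 0.604 in the farthest class. At 2 to 10 kb its medians were above those of both dbf4∆C and WT. From 10 kb outward the medians of dbf4-Zn*1 were above those of WT. Those of dbf4∆C were higher still, but the rule holds them up, so nothing is read from their rank.

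**Figure D2:**
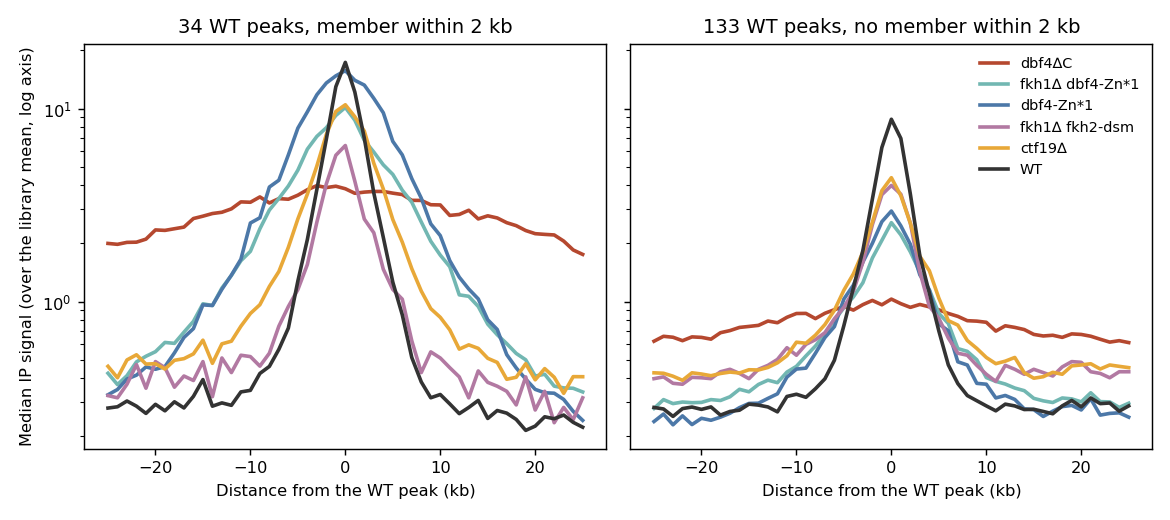
Median IP signal (log axis) against distance from WT peaks, for the 34 WT peaks with a member within 2 kb (left) and the 133 without (right), as the mean of 2 replicates in each of 6 strains. At the 34 peaks dbf4∆C is a low, broad hill of 3.89 and 3.79 at the centre and 2.28 and 2.21 at 20 kb to the right, whereas WT is a spike of 16.5 and 18.2 that falls to 0.229 and 0.224. The split of the peaks rests on dbf4∆C, whose height at the centre is held up by the rule.

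At the 34 WT peaks beside members, dbf4∆C had medians of 3.89 and 3.79 and WT 16.5 and 18.2. At the other 133 peaks dbf4∆C had 1.03 and 1.03 and WT 8.47 and 9.13. The rule on dbf4∆C made this split, so nothing is read from the dbf4∆C difference. In WT, the peaks near members were higher than the other peaks. At the top windows, dbf4∆C was above both WT replicates in both of its own at 87 loci and below at 29. Over all windows 71.4% were higher and 13.5% lower without overlap, and since the rule used dbf4∆C nothing is read from these counts.

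Each of the 12 loci of 20 or more windows held 1 WT peak. III:51001-85000 spanned 34 windows, and its top window, at STE50 (an adaptor of the mating pathway) and RRP7, gave a signal of 5.72 in each dbf4∆C replicate, 3.72 and 3.78 in dbf4-Zn*1 and 0.367 and 0.422 in WT. That top window lay 10 kb from the nearest WT peak. XII:350001-390000 was the longest, and its top window, 5 kb from the peak and at AHP1 (a peroxiredoxin gene), had 5.98 and 5.41 in dbf4∆C, against 1.96 and 1.51 in WT. In both tracts the maximum of dbf4∆C was away from the WT summit, but by a small margin. At the summits the mean of the dbf4∆C replicates was 5.41 on III and 5.04 on XII, against 5.72 and 5.70 at the top windows.

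Other tracts had their maximum close to the WT peak. At XV:271001-287000 the top window, at IFM1 (a mitochondrial translation factor gene), had 5.86 and 5.20 in dbf4∆C, while dbf4-Zn*1 gave 19.4 and 20.5, against 19.1 and 21.2 in WT. At VII:874001-902000 it had 5.09 and 4.97 in dbf4∆C, against 15.9 and 18.1 in WT. At VII:824001-848000 the top window had 5.08 and 5.20 in dbf4∆C, against 8.10 and 9.46 in WT. At these 3 top windows the dbf4∆C signal was below that of WT in both replicates. Averaged over the whole tract, that held only at XV:271001-287000, with 4.03 and 3.93 in dbf4∆C against 5.73 and 5.93 in WT. The mean of VII:874001-902000 was 4.15 and 3.87 in dbf4∆C, against 3.40 and 3.48 in WT. That of VII:824001-848000 was 4.15 and 4.06 in dbf4∆C, against 3.28 and 3.34 in WT.

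IV:893001-926000 holds the HTA1 and HTB1 pair, and its top window, at PCF11 (an mRNA cleavage factor gene), had 5.50 and 4.96 in dbf4∆C, against 1.42 and 1.24 in WT. VI:181001-208000 peaked at LSB3 with 5.60 and 4.59 in dbf4∆C, against 7.16 and 6.15 in WT. IX:395001-428000 peaked at DAL4, the allantoin permease gene, with 5.28 and 4.94 in dbf4∆C, against 5.67 and 4.93 in WT, so the replicates overlapped there. Averaged over whole tracts of 10 or more windows, dbf4∆C ranged from 3.65 to 5.21 per replicate, a span that the threshold bounds from below.

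Some high values lay in repeated or altered sequence. The highest signal, 14.0 and 11.6 in dbf4∆C against 6.84 and 5.50 in WT, was in the window of the retrotransposon gene YIL082W-A at IX:209001-210000. Its Total signal was 3.90 and 3.53 in dbf4∆C, against 3.22 and 2.89 in WT. XII:490001-491000, which borders the ribosomal repeats left out here, had 7.83 and 8.25 in dbf4∆C, against 6.01 and 6.07 in WT, with Total signals of 15.3 and 16.3 in dbf4∆C, against 19.9 and 20.3 in WT. Reads of repeats can come from several copies, and both values stand for such a mixture. In addition, the first windows of chromosomes V, IX, X and XII and the window of YRF1-4, a subtelomeric helicase gene, which also lie in repeated end sequence, were members of 3.06 to 4.66 in dbf4∆C.

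The window of URA3, at V:116001-117000, had an IP signal of 4.15 and 4.74 in dbf4∆C against 0.213 and 0.124 in WT. Its Total signal was 1.78 and 1.80 in dbf4∆C, against 0.876 and 0.825 in WT. The windows on either side had 2.14 to 2.98 in dbf4∆C and fell short of the rule. Total signals of ctf19∆, at 1.80 and 1.67, and fkh1∆, at 1.72 and 1.66, were equally high with IP signals of 0.492 to 0.655. Both strains carry the BrdU cassette with URA3 in the study's strain list, and WT carries it at leu2. fkh1∆ fkh2-dsm and ctf19∆ fkh1∆ fkh2-dsm, also of the ura3 kind, had Total signals of 1.18 to 1.85. The zinc-finger strains, of the leu2 kind, had 0.747 to 0.921. By this signal dbf4∆C was like the ura3 kind, so cassette and truncation may also differ together against WT. Whether the copy difference at URA3 carried the window over the threshold was not tested. The end windows, URA3 and the histone genes were singled out after their values were seen.

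The zinc-finger mutants were compared with WT to see whether members depend on the motif itself. dbf4-Zn*1 was higher than WT at the top window of 76 loci (65.0%, against 12.2% of all windows) and lower at 9 (7.69%, against 10.2%). dbf4-Zn*2 was higher at 80 loci (68.4%, against 12.6% of all windows) and lower at 9 (7.69%, against 9.1%). These are calls of edgeR's quasi-likelihood test at an adjusted p under 0.05 over 12000 windows. Over the loci, dbf4-Zn*1 had a median log2 fold change of 1.16 and dbf4-Zn*2 one of 1.28, beside -0.18 and -0.05 over all windows. Both mutants were set against the same WT libraries.

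Distance from WT peaks separated these calls. At 5 to 10 kb, 168 of 172 members (97.7%) were higher in dbf4-Zn*1, with a median log2 fold change of 3.00, whereas of the 1283 other windows at that distance 33.8% were higher, with a median of 0.42. Under 2 kb, 13 of 74 members were higher and 9 lower, and of 409 other windows 1.22% were higher and 83.9% lower. The peaks showed the same split. dbf4-Zn*1 was lower at 10 of the 34 WT peaks beside members, with a median of -0.20, and at 126 of the 133 others, with a median of -1.53. The WT peaks were chosen from the same WT libraries, so any comparison with WT leans lower at summits and higher away from them. ctf19∆ was likewise lower than WT at 29 of the 34 peaks and 98 of the 133. This bears on all counts by distance from WT peaks in comparisons with WT. In dbf4-Zn*1, peaks beside members were less often lower than the other peaks. Members at 5 to 10 kb were more often higher than other windows at that distance.

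**Figure D3:**
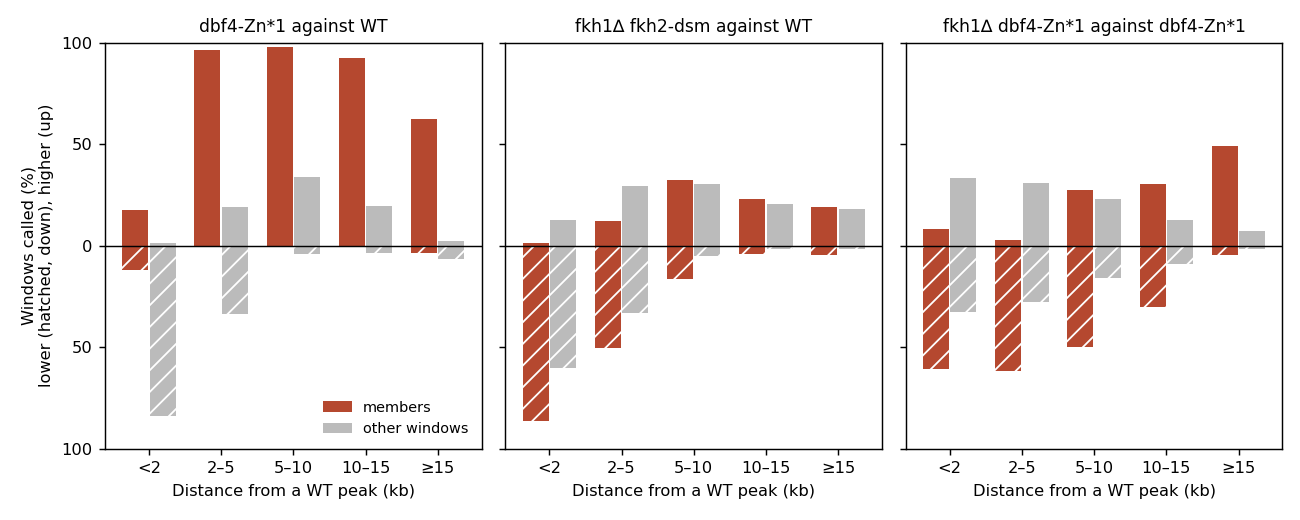
Percentage of windows called higher (upward) and lower (downward, hatched) by edgeR's quasi-likelihood test at an adjusted p under 0.05, by distance from the nearest WT peak, for members (red) and all other windows (grey). In dbf4-Zn*1 against WT 97.7% of members at 5 to 10 kb were higher, and in fkh1∆ fkh2-dsm against WT 86.5% of members under 2 kb were lower. The WT peaks were chosen from the WT libraries used in both of these comparisons.

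The strongest rise was at III:48001-49000, at PDI1 (protein disulphide isomerase) and MGR1, 9 kb from a WT peak. The signal was 4.59 and 4.14 in dbf4-Zn*1, 4.78 and 4.20 in dbf4-Zn*2 and 0.381 and 0.323 in WT. The log2 fold change was 3.59 ± 0.23 (SE) in dbf4-Zn*1, with an edgeR adjusted p of 2e-16. In dbf4∆C this window had 3.62 and 3.94.

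The strongest fall was at III:91001-94000, with its top window at NFS1 (the cysteine desulphurase gene), about 21.4 kb from the centromere. dbf4∆C reached 4.26 and 3.88 there, while dbf4-Zn*1 had 0.107 and 0.185, dbf4-Zn*2 had 0.242 and 0.113, and WT had 0.420 and 0.422. The window was thus high in dbf4∆C alone of these strains. The log2 fold change was -1.61 ± 0.39 (SE) in dbf4-Zn*1 (edgeR adjusted p = 0.001) and -1.11 ± 0.36 in dbf4-Zn*2 (edgeR adjusted p = 0.02). Without replicate 1 of dbf4-Zn*1 the value was -1.19 and no longer called. That of dbf4-Zn*2 was not called without its replicate 2 (-0.80) or without replicate 1 of WT (-1.11).

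Of the 9 loci lower in each mutant, 5 were the end windows on V, IX, X and XII, where the log2 fold changes were -1.02 to -0.77 in dbf4-Zn*1 and -0.67 to -0.59 in dbf4-Zn*2, with WT signals of 6.31 to 15.1. The falls are less firm than the rises. Without replicate 1 of dbf4-Zn*1, or without replicate 2 of dbf4-Zn*2, 5 were called. With members of at least 4, 0 were called lower in either mutant.

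fkh1∆ fkh2-dsm cells, which lack origin stimulation by both Fkh proteins, were compared with WT to see how far members depend on it. They were lower at 35 loci (29.9%, against 7.5% of all windows) and higher at 17 (14.5%, against 20.2%). The median log2 fold change was -0.04 over the loci and 0.43 over all windows. With TMM scaling, which set the median of all windows to -0.00, 41 loci were lower and 6 higher, and with DESeq2 39 were lower and 9 higher. At the 34 WT peaks beside members 31 were lower, with a median of -1.49, and at the 133 others 88 were, with a median of -1.22. Under 2 kb from a peak, 64 of 74 members (86.5%) were lower, against 60.4% of the other windows there. The WT peaks were again chosen from the WT libraries compared here.

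The largest fall was in a short cluster at XV:1049001-1057000. Its window between RDR1, a repressor gene of drug resistance, and FRE3, a siderophore reductase gene, is a WT peak. It had 0.540 and 0.386 in fkh1∆ fkh2-dsm and 16.9 and 18.9 in WT, with a log2 fold change of -5.22 ± 0.23 (SE) and an edgeR adjusted p of 3e-20. fkh1∆ alone had 4.30 and 5.25 there, which was -1.91 ± 0.15 against WT (edgeR adjusted p = 8e-13), its own largest fall. The window had 3.60 and 3.28 in dbf4∆C, and dbf4-Zn*1 cells reached 15.3 and 15.9. The largest rise in fkh1∆ fkh2-dsm was at XII:245001-246000, with 2.83 and 1.37 against 0.351 and 0.248 in WT (log2 fold change 2.77 ± 0.30, edgeR adjusted p = 1e-09).

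Whole tracts differed in the same comparison. At IX:395001-428000 the mean over 33 windows was 0.611 and 0.628 in fkh1∆ fkh2-dsm and 3.39 and 3.34 in WT, and at VI:181001-208000 it was 0.925 and 0.940 in fkh1∆ fkh2-dsm and 3.22 and 3.18 in WT. At XII:221001-243000 it was 4.84 and 5.02 in fkh1∆ fkh2-dsm and 3.75 and 3.75 in WT. Replicates of the strains did not overlap in any of the 3, and the direction was not shared. Of the 17 long tracts, those at VI, at IX:395001-428000, at X:539001-551000 and at XIII:804001-824000 had 0 windows of at least 3 in both fkh1∆ fkh2-dsm replicates. In dbf4∆C the means of these tracts were 4.04 and 3.94, 4.13 and 3.97, 3.88 and 3.72, and 4.11 and 3.96, within the range of the others.

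**Figure D4:**
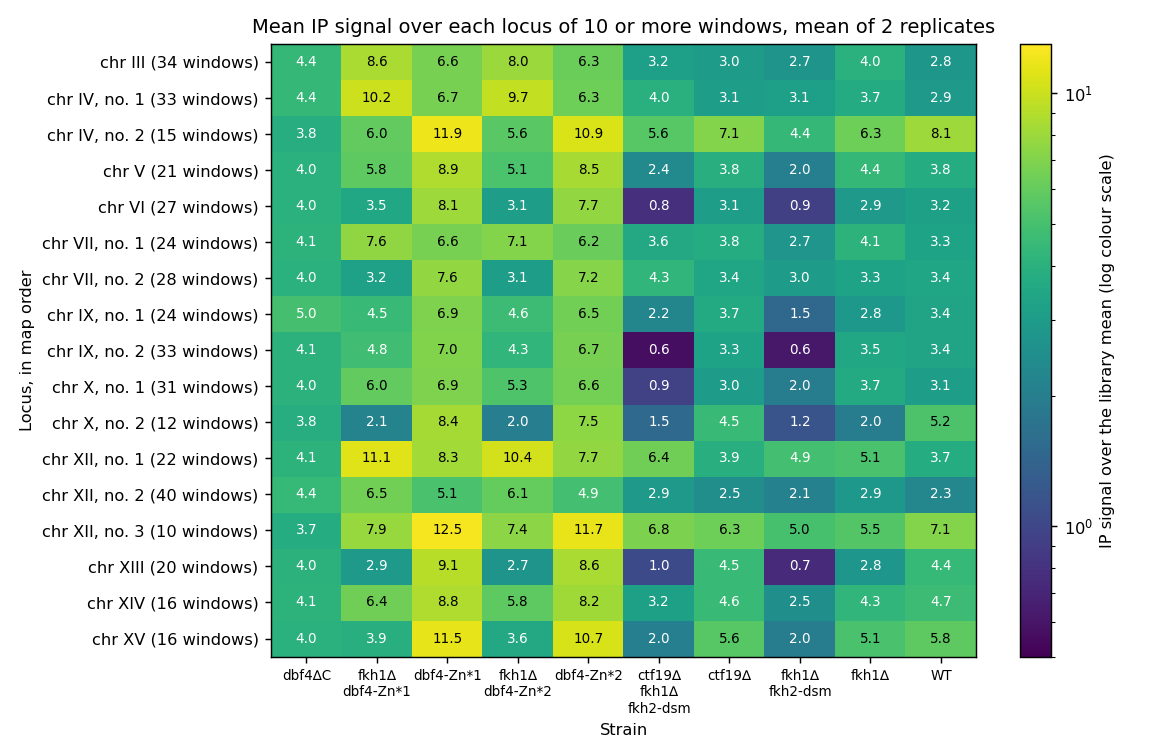
Mean IP signal over each of the 17 loci of 10 or more windows (rows, in map order) in each strain (columns, dbf4∆C at the left and WT at the right), as the mean of 2 replicates, with the values printed in the cells on a log colour scale. dbf4∆C is nearly uniform down its column because of the rule, while fkh1∆ fkh2-dsm has 0 windows of at least 3 in both replicates in 4 of the tracts.

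The same Fkh changes in cells that also lack Ctf19 were compared in libraries that share none with the comparison above. ctf19∆ fkh1∆ fkh2-dsm was lower than ctf19∆ at 39 loci (33.3%, against 9.77% of all windows) and higher at 10 (8.55%, against 11.9%), with a median of -0.43 over the loci and -0.03 over all windows. Of the loci lower in this comparison 27 (69.2%) were also among the 35 lower in fkh1∆ fkh2-dsm against WT (77.1%). Over all windows, 577 were lower in both, which is 49.2% of the windows lower in this comparison and 64.1% of those lower in fkh1∆ fkh2-dsm against WT. Of the 10 loci higher here, 5 (50%) were also among the 17 higher in fkh1∆ fkh2-dsm against WT (29.4%), beside 68.5% and 40.2% over all windows. A single locus was called in opposite directions. The largest fall was at XV:1051001-1052000, with 0.668 and 0.431 in ctf19∆ fkh1∆ fkh2-dsm, against 8.43 and 5.85 in ctf19∆ (log2 fold change -3.66 ± 0.21, edgeR adjusted p = 5e-17). The largest rise was again at XII:245001-246000, with 4.38 and 2.90 in ctf19∆ fkh1∆ fkh2-dsm, against 0.427 and 0.320 in ctf19∆ (3.21 ± 0.29, edgeR adjusted p = 2e-11).

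Loss of Fkh1 alone gave smaller extremes, and its split of calls moved with the scaling. fkh1∆ was lower than WT at 20 loci (17.1%, against 4.56% of all windows) and higher at 29 (24.8%, against 9.43%), with a median of 0.32 over the loci and 0.24 over all windows. With TMM, 23 were lower and 16 higher, and with DESeq2 26 were lower and 21 higher. Without replicate 1 of WT 19 loci were called higher. Rises were most frequent among the members at 5 to 10 kb from a WT peak, 115 of 172 (66.9%, against 26.5% of the other windows at that distance).

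Loss of Fkh1 was also measured within each zinc-finger mutant. fkh1∆ dbf4-Zn*1 was lower than dbf4-Zn*1 at 44 loci (37.6%, against 8.59% of all windows) and higher at 30 (25.6%, against 12.6%). fkh1∆ dbf4-Zn*2 was lower than dbf4-Zn*2 at 51 loci (43.6%, against 8.77% of all windows) and higher at 24 (20.5%, against 11.0%). Medians over the loci were -0.20 and -0.33, and over all windows 0.31 and 0.28. In fkh1∆ dbf4-Zn*1 TMM gave 48 lower loci beside 19 higher ones, and DESeq2 gave 53 and 21. These comparisons share no library. All 44 loci lower in the first were lower in the second (86.3% of the second list), and all 24 higher in the second were higher in the first (80.0% of the first list). Over all windows these shares were 88.5% and 86.7% for lower calls, and 77.0% and 66.7% for higher ones.

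**Figure D5:**
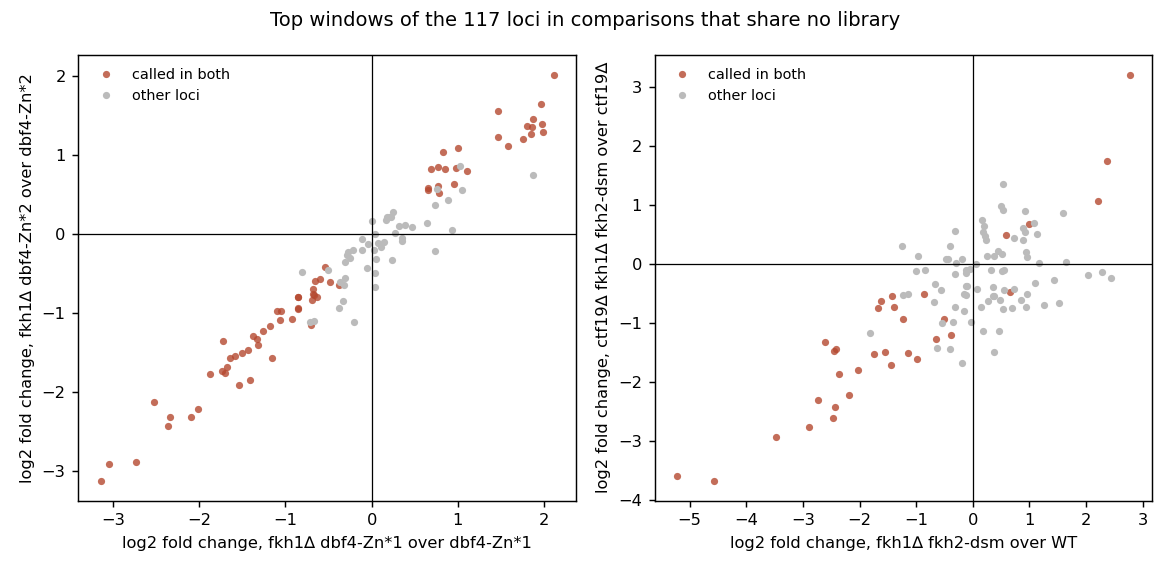
log2 fold changes at the top windows of the 117 loci, for fkh1∆ dbf4-Zn*1 and fkh1∆ dbf4-Zn*2 each over its zinc-finger parent (left) and for fkh1∆ fkh2-dsm over WT and ctf19∆ fkh1∆ fkh2-dsm over ctf19∆ (right). Red points were called in both comparisons of a panel by edgeR's quasi-likelihood test, and at left 44 loci are lower in both and 24 higher in both.

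The largest fall with loss of Fkh1 was next to that of fkh1∆ fkh2-dsm, at XV:1049001-1050000. Its signal was 1.13 and 1.01 in fkh1∆ dbf4-Zn*1 and 10.3 and 8.51 in dbf4-Zn*1, and it was 1.03 and 0.980 in fkh1∆ dbf4-Zn*2 and 9.61 and 7.81 in dbf4-Zn*2. The log2 fold changes were -3.14 ± 0.18 and -3.12 ± 0.18 (SE), each with an edgeR adjusted p of 3e-17. dbf4∆C had 3.37 and 3.31 there, and WT 1.95 and 1.91.

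The largest rise was at IV:931001-934000, at LYS4 (homoaconitase, in lysine synthesis), 19 kb from a WT peak. It had 1.66 and 1.82 in fkh1∆ dbf4-Zn*1 and 0.477 and 0.308 in dbf4-Zn*1 (log2 fold change 2.11 ± 0.31, edgeR adjusted p = 1e-06). In fkh1∆ dbf4-Zn*2 it had 1.49 and 1.67, against 0.475 and 0.265 in dbf4-Zn*2. dbf4∆C had 4.25 and 3.83 in this window and WT 0.162 and 0.0745. The neighbouring tract IV:893001-926000 moved the same way, with means of 10.0 and 10.3 in fkh1∆ dbf4-Zn*1 and 6.81 and 6.57 in dbf4-Zn*1, and 26 of its 33 windows were called higher and 0 lower.

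By contrast, at VII:874001-902000 all 28 windows were lower in fkh1∆ dbf4-Zn*1 and in fkh1∆ dbf4-Zn*2 than in their zinc-finger parents. The means were 3.19 and 3.29 in fkh1∆ dbf4-Zn*1 and 7.80 and 7.47 in dbf4-Zn*1. In fkh1∆ fkh2-dsm against WT, 4 windows of that tract were lower and 12 higher. Windows of one tract share forks and are not replicates.

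The effect of fkh1∆ was tested for a difference between backgrounds, a comparison added after the data were seen. Relative to its effect in WT, it was more negative in dbf4-Zn*1 at 40 of 117 loci (against 6.12% of all windows) and more positive at 12 (against 3.81%). In dbf4-Zn*2 it was more negative at 41 of 117 loci (against 6.41% of all windows) and more positive at 8 (against 3.6%). Both WT replicates were under 1 at 67 of the 117 top windows, which leaves little room for a fall in fkh1∆ there. The part of this limit in the counts was not tested. For fkh1∆ fkh2-dsm in ctf19∆ relative to WT, 11 of 117 loci were more negative (against 6.54% of all windows) and 12 more positive (against 3.08%). In each of these tests the listed BrdU cassette differs within the comparison with WT and not within the other one. Background and cassette therefore cannot be told apart in these differences.

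ctf19∆ was compared with WT because Ctf19 serves origins beside centromeres, and its result turned with the scaling. Scaled by library totals, ctf19∆ was higher at 53 loci (45.3%, against 21.5% of all windows) and lower at 14 (12.0%, against 4.65%), with medians of 0.68 over the loci and 0.62 over all windows. With TMM, which took the median of all windows to 0.03, 7 loci were higher and 30 lower, and with DESeq2 12 were higher and 30 lower. Without replicate 1 of WT 34 loci were higher, and 9 were lower without replicate 2 of ctf19∆ and 8 without replicate 2 of WT. Scaled by library totals, the calls split by distance from WT peaks, which were chosen from the WT libraries compared here. At 5 to 10 kb from a WT peak 149 of 172 members (86.6%) were higher, against 49.3% of the other windows there, and under 2 kb 56 of 74 (75.7%) were lower, against 60.4%. The largest rise was at IV:931001-934000, with 0.451 and 0.689 in ctf19∆ and 0.162 and 0.0745 in WT (log2 fold change 1.93 ± 0.39, edgeR adjusted p = 0.0002).

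The 18 loci within 25 kb of a centromere lay on chromosomes I, III, VI, X and XIII. The largest fall in ctf19∆ was among them, at XIII:286001-287000, a WT peak at ANY1 about 18.1 kb from the centromere. It had 8.16 and 9.59 in ctf19∆ and 16.8 and 18.6 in WT, a log2 fold change of -1.0 ± 0.13 (SE) with an edgeR adjusted p of 2e-07. In dbf4∆C it had 3.09 and 3.31. It was also lower in dbf4-Zn*1, with 13.0 and 13.1 (-0.44 ± 0.13, edgeR adjusted p = 0.007). The 5 other loci of this cluster, at XIII:277001-289000, had 3.04 to 4.25 in dbf4∆C and 0.385 to 9.38 in WT.

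On chromosome X the tract X:402001-433000 ran up to about 3.9 kb from the centromere. Its top window, X:416001-417000, is a WT peak and had 4.61 and 5.22 in dbf4∆C, 10.5 and 14.8 in ctf19∆, 17.7 and 20.6 in dbf4-Zn*1 and 19.6 and 21.4 in WT. It was lower in ctf19∆ (-0.71 ± 0.14, edgeR adjusted p = 0.0002) and in fkh1∆ fkh2-dsm (-0.98 ± 0.15, edgeR adjusted p = 1e-06). In dbf4-Zn*1 the log2 fold change was -0.10 ± 0.14 (SE) and was not called.

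On the other side of that centromere, X:437001-438000, at AVT1 (a vacuolar amino acid transporter gene), gave the largest rise of fkh1∆. It had 2.48 and 2.58 in fkh1∆ and 0.687 and 0.720 in WT (1.85 ± 0.23, edgeR adjusted p = 9e-08), and 3.26 and 2.36 in fkh1∆ fkh2-dsm. In ctf19∆ it had 0.495 and 0.762, and in dbf4∆C 3.10 and 3.08. X:434001-435000, at OST1 (an oligosaccharyltransferase subunit gene), had 3.30 and 3.07 in dbf4∆C, against 0.341 and 0.335 in WT.

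On chromosome I, the loci at I:171001-176000 flank a WT peak at CDC15, the mitotic exit kinase gene. The peak window had 3.77 and 3.34 in dbf4∆C, while dbf4-Zn*1 gave 16.2 and 16.1, against 15.8 and 17.4 in WT. I:171001-172000, 4 kb away, had 3.42 and 3.08 in dbf4∆C, while dbf4-Zn*1 gave 9.13 and 8.64, against 1.69 and 1.28 in WT. At the summit the log2 fold change of dbf4-Zn*1 was -0.04 ± 0.12 (SE) and not called, and on the flank it was 2.54 ± 0.21 (edgeR adjusted p = 3e-13). On chromosome VI, the window at GCN20, 4 kb from a WT peak, had 3.08 and 3.23 in dbf4∆C, while dbf4-Zn*1 gave 7.18 and 5.37, against 1.59 and 1.47 in WT (2.03 ± 0.17 for dbf4-Zn*1, edgeR adjusted p = 3e-13). That at UBP6, 1 kb from the peak, had 3.89 and 3.43 in dbf4∆C, while dbf4-Zn*1 gave 13.8 and 13.3, against 9.76 and 10.4 in WT (0.42 ± 0.12, edgeR adjusted p = 0.007). On chromosome III, the locus at DCC1, a cohesion gene, had 3.29 and 3.08 in dbf4∆C, against 0.270 and 0.112 in WT. III:103001-104000 had 3.05 and 3.28 in dbf4∆C, 3.91 and 3.99 in fkh1∆ fkh2-dsm and 0.797 and 0.832 in WT.

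Binding of Dbf4 itself was read from the ChIP-seq libraries, in which 50.7% to 67.1% of reads lay in the ribosomal repeats. Levels are reads in a window over the mean window outside these repeats. Over the members, the medians were 0.941 and 0.964 for Dbf4-aaHH and 0.977 and 0.931 for Dbf4, beside medians of all windows of 0.921 and 0.917 for Dbf4-aaHH and 0.920 and 0.902 for Dbf4. Without the locus that borders the repeats, the top windows ran from 0.431 to 3.44 for Dbf4-aaHH and from 0.403 to 3.11 for Dbf4. Of these 116 loci, 11 and 8 for Dbf4-aaHH and 9 and 13 for Dbf4 exceeded the 95th percentile of all windows. These are larger shares than that percentile leaves above it, while the member medians lay close to those of all windows. The high loci included the repeat window IX:209001-210000, with 2.86 and 3.44 for Dbf4-aaHH and 2.52 and 2.89 for Dbf4. The ChIP-seq samples include no input library, and the part of DNA content was not tested. At the 18 loci near centromeres the medians were 0.881 and 0.824 for Dbf4-aaHH and 0.906 and 0.686 for Dbf4.

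Between Dbf4-aaHH and Dbf4, 0 of 117 loci were called in either direction by edgeR, as were 0.0% of all 11973 windows, and 0 loci had an unadjusted p under 0.05. The log2 fold changes at the loci ran from -0.54 to 0.39, with a median SE of 0.41, so that small changes were not detectable at this spread. Over all windows, 11 had an unadjusted p under 0.05. DESeq2 also called 0 loci. With library sizes outside the repeats 0 loci were called and 2 had an unadjusted p under 0.05. Over all windows, some calls appeared under these alternatives, with 8 lower and 0 higher by DESeq2, 18 and 3 with library sizes outside the repeats and 19 and 3 with TMM, which called 0 loci.

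All 8 IP comparisons rest on scaling by the IP library itself. When library sizes were taken from the Total libraries, 0 loci were called in any of them. Total sizes do not follow the depth of the IP libraries. The WT replicates had 5952588 and 972119 bin counts in IP, but 9857420 and 10216831 in Total. This scaling thus sets replicates of 1 strain apart, and its part in the loss of calls was not tested. The medians over the loci then turned in fkh1∆ against WT (-0.29), ctf19∆ fkh1∆ fkh2-dsm against ctf19∆ (0.02) and fkh1∆ dbf4-Zn*1 against dbf4-Zn*1 (0.20), together with medians of all windows of -0.39, 0.43 and 0.72.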

How the data were processed

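QBU libraries (IP and Total) of 10 strains and ChIP-seq libraries of FLAG-tagged Dbf4-aaHH and Dbf4 were used, with 2 replicates each, in groups taken from the genotype labels. For QBU, the authors deposited raw counts of reads per 50-bp bin, and a read counts in each bin that it overlaps. For ChIP-seq, they deposited lists of reads whose score is a mapping quality. The submitters' processing notes name Bowtie2, SAMtools and bedtools, and versions and genome build are not given in the sources used here. Genes were named from a RefSeq table.

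Bins were summed into 1-kb windows of 20 bins, leaving out XII from 450 to 490 kb. A top window is the window of a locus with the highest dbf4∆C mean. Windows of at least 10 counts in 2 libraries, which all 589 members were, were fitted with edgeR 4.0.16 (quasi-likelihood, R 4.3.3, strain only, library size as the sum of bins, Benjamini-Hochberg over 12000 windows). DESeq2 1.42.0 and TMM served as alternatives. Python 3.11.15 was used for levels. On simulated counts for fkh1∆ fkh2-dsm against WT with 200 of 12000 windows changed, 67.5% of 4-fold and 1.5% of 2-fold changes were recovered. In the data 900 windows were called lower and 2427 higher. The recovery therefore holds for a setting with fewer changes, where the adjusted p is stricter, and not for the comparison itself. Depth limits the shallow fkh1∆ fkh2-dsm libraries most.

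Named loci were the 10 highest, those within 25 kb of a centromere and the extremes of each comparison, and windows near the threshold. Members and lists were chosen with earlier results of these data known. The labels give the ChIP-seq strain numbers the opposite way to the study's strain list, and the genotype labels were followed.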

Additional observations from a re-analysis of the deposited data

Results flagged for a closer look

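The effect of fkh1∆ differed between backgrounds at many loci by a test of the difference itself (edgeR, adjusted p under 0.05). Relative to WT cells it was more negative in dbf4-Zn*1 at 40 of 117 loci (against 6.12% of all windows) and more positive at 12 (against 3.81%). In dbf4-Zn*2 it was more negative at 41 (against 6.41%) and more positive at 8 (against 3.6%). The medians were -0.45 and -0.71 over the loci beside 0.04 and -0.00 over all windows. Both differences use the same fkh1∆ and WT libraries, whose listed BrdU cassettes differ, while all zinc-finger strains have it at leu2. Background and cassette thus cannot be told apart here. At 67 of the 117 top windows both WT replicates were under 1, which leaves little room for a fall in fkh1∆. The part of this limit in the counts was not tested. At IV:893001-926000 (top window at PCF11) the difference was 2.17 ± 0.26 (SE) in dbf4-Zn*1 (edgeR adjusted p = 7e-08), and at XV:1049001-1050000 it was -2.17 ± 0.24 (edgeR adjusted p = 3e-08).

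The effect of fkh1∆ fkh2-dsm in ctf19∆ relative to WT was more negative at 11 of 117 loci (against 6.54% of all windows) and more positive at 12 (against 3.08%). Its median was -0.27 over the loci and -0.33 over all windows. Beside the centromere of chromosome X, at X:434001-435000 (OST1), it was -2.68 ± 0.47 (edgeR adjusted p = 0.0001). The listed cassette differs between fkh1∆ fkh2-dsm and WT and not within the ctf19∆ pair, so background and cassette cannot be told apart here. Groups of 2 replicates are too small for a check of single outlying samples.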

How the results depend on the processing

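Counts of loci called lower moved by over 1.5 times as follows. With members of at least 2 they were 67 in fkh1∆ fkh2-dsm, 38 in fkh1∆, 22 in ctf19∆, 36 in dbf4-Zn*1, 31 in dbf4-Zn*2 (all against WT), and 77 in ctf19∆ fkh1∆ fkh2-dsm against ctf19∆. With members of at least 4 they were 10 in fkh1∆, 7 in ctf19∆, and 0 in both zinc-finger mutants. With windows shifted by 10 bins they were 21 in fkh1∆ fkh2-dsm, 9 in fkh1∆, 8 in ctf19∆, 1 in dbf4-Zn*1, 2 in dbf4-Zn*2. With TMM or DESeq2, 30 were lower in ctf19∆. Counts of loci called higher moved with TMM to 6 in fkh1∆ fkh2-dsm, 16 in fkh1∆, 7 in ctf19∆ and 19 in fkh1∆ dbf4-Zn*1, and with DESeq2 to 9 in fkh1∆ fkh2-dsm and 12 in ctf19∆. With only the libraries of the comparison they were 7 for fkh1∆ fkh2-dsm, 3 for ctf19∆ fkh1∆ fkh2-dsm. With members of at least 2 they were 47 in fkh1∆ dbf4-Zn*1 and 46 in fkh1∆ dbf4-Zn*2, with members of at least 4 19 and 14, and with shifted windows 14 in fkh1∆ dbf4-Zn*2 and 5 in ctf19∆ fkh1∆ fkh2-dsm. With Total library sizes all 8 IP comparisons had 0 calls in each direction. Total sizes do not follow the depth of the IP replicates, and the part of this mismatch was not tested.

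Leaving out 1 replicate gave 29 to 35 lower and 15 to 18 higher loci in fkh1∆ fkh2-dsm, 14 to 16 and 19 to 23 in fkh1∆, 8 to 13 and 34 to 47 in ctf19∆, 5 to 8 and 63 to 71 in dbf4-Zn*1, 5 to 8 and 70 to 73 in dbf4-Zn*2, 31 to 40 and 7 to 11 in ctf19∆ fkh1∆ fkh2-dsm, 37 to 40 and 24 to 26 in fkh1∆ dbf4-Zn*1, and 42 to 45 and 17 to 20 in fkh1∆ dbf4-Zn*2. A single library then stands for its strain and is assumed to vary like the others. The rule on 1 dbf4∆C replicate gave 648 to 718 members in 126 to 140 loci.

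A threshold of 2 gave 1258 members, a threshold of 4 gave 168 in 75 loci, IP over Total gave 275, and merging over gaps of up to 5 kb gave 39 loci. Subtracting the median bin, the share of signal in members was 30.4% in dbf4∆C, 38.1% in dbf4-Zn*1, 37.2% in dbf4-Zn*2, 32.4% in fkh1∆ dbf4-Zn*1, 30.7% in fkh1∆ dbf4-Zn*2, 20.2% in ctf19∆, 14.5% in ctf19∆ fkh1∆ fkh2-dsm, 10.9% in fkh1∆ fkh2-dsm, 19.6% in fkh1∆ and 18.7% in WT. With members of at least 2 it was 33.8%, 46.7%, 44.6%, 37.1%, 35.2%, 26.3%, 18.7%, 16.7%, 24.6% and 26.3% in the same order of strains. Averaged over all windows of a locus, the median was 1.81 in fkh1∆ dbf4-Zn*2 and 0.777 in ctf19∆ fkh1∆ fkh2-dsm.

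Replicate numbers do not pair the samples, since deviations of same-numbered IP libraries correlated at -0.04 to 0.08 over 45 pairs of strains and ChIP-seq libraries at 0.004. With the replicate number as a block, 34 loci were lower and 17 higher in fkh1∆ fkh2-dsm, 9 and 76 in dbf4-Zn*1, and 0 in ChIP-seq, and no count of calls moved by over 1.5 times.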
